A study of Mus musculus with 9 samples.

Results

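The genes described here are 9 components of the Wnt and beta-catenin pathway, Fzd4, Fzd6, Fzd7, Lrp5, Lrp6, Axin2, Apc, Ctnnb1 and Tcf7l2, chosen by symbol from the 16299 genes of the deposited table, which held all 9. Their RNA was measured in melanocytes, the pigment cells of skin, which were sorted by flow cytometry from mouse epidermis. Knockout back libraries came from back epidermis and knockout tail libraries from tail epidermis of mice with the genotype Spry1flox/flox k14-Cre-ERT2. Control tail libraries came from tail epidermis of Spry1flox/flox mice without the Cre, so all groups carry the floxed Spry1 alleles. There were 3 libraries in each of the 3 groups, and the labels used here state neither the age of the mice nor a tamoxifen treatment. The Cre is driven by the keratin 14 promoter, which is active in basal keratinocytes, and the recombination is thus directed at neighbours of the sorted cells rather than at melanocytes. No label says whether libraries of a group stem from separate animals. The p-values below therefore reflect the spread among libraries, part or all of which may be technical.

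In canonical Wnt signalling a secreted Wnt protein binds a Frizzled receptor and an Lrp5 or Lrp6 co-receptor. Without that signal a cytoplasmic destruction complex, built on the scaffolds Axin and Apc, marks beta-catenin for degradation. With it, beta-catenin, the product of Ctnnb1, accumulates and acts in the nucleus with TCF/LEF factors such as Tcf7l2, and Axin2 is one of the targets whose transcription it raises. In the melanocyte lineage the pathway is known for driving melanocyte fate from the neural crest, partly through Mitf, and for the supply of pigment cells from the hair follicle. Beta-catenin is controlled chiefly through protein stability, which these RNA measurements do not show.

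Library totals, in M (mega) counts, were 47.7 to 57.1 for knockout back, 45.7 to 65.5 for knockout tail and 66.2 to 67.8 for control tail. The targeted gene, Spry1, had normalised counts (counts divided by the library's size factor) of 2283, 0 and 746 in knockout back, 3590, 1758 and 587 in knockout tail and 1510, 1074 and 1285 in control tail, so its level did not separate knockout from control libraries. The third knockout back and the third knockout tail libraries form a set of their own. The submitted values have a per-gene shift between these 2 libraries and the other 7 taken out. All control libraries belong to the larger set. Normalised counts here are given with the shift put back, so group means, their ratios and comparisons of single libraries mix group with library set. The first and second knockout back libraries stood apart from the other 7 on the first principal component. Of genes with a mean of 300 to 3000 normalised counts in the other libraries, 32.3% and 47.0% lay under 10% of that mean in the first and second knockout back libraries, against 2.19% to 4.38% in each of the other 7. Ddx3y, a Y-linked gene, was at 0 in the control libraries and the third knockout tail library and at 160 to 2256 in the other 5. Xist, which is transcribed from the inactive X of females, had 1414, 1481 and 2645 normalised counts in knockout back, 4, 16 and 7358 in knockout tail and 4223, 1416 and 3973 in control tail. Knockout back libraries thus held both transcripts, the knockout tail libraries differed among themselves, and control libraries held Xist alone. The part of sex in the results was not tested.

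Melanocyte markers (11 of 14 listed had counts) summed to 1712798 to 1837231 normalised counts in knockout back, 1636674 to 1870066 in knockout tail and 1081476 to 1359352 in control tail, and none of the 11 was at 0 in any library. The summed levels of markers of other cells also differed between groups. Muscle, fat and blood markers (5 of 7) summed to 6051, 15023 and 25386 in knockout back, 83662, 104465 and 2489 in knockout tail and 9219, 639 and 1460 in control tail, so the first and second knockout tail libraries were the highest. The haemoglobin gene Hba.a1 had 37988 and 42771 in those 2 libraries and at most 10552 in the other 7. Langerhans and myeloid markers (9 of 10 listed) summed to 7348 to 27449 in knockout back, 1857 to 13073 in knockout tail and 1495 to 3477 in control tail. Of these 9, 5 were higher and 4 lower in knockout back than in control tail, and 2 passed, Cd74 and H2.Aa, both higher. Cd74, of the antigen-presenting machinery, had 1659, 4428 and 12517 in knockout back, 107, 7 and 5137 in knockout tail and 4, 134 and 2 in control tail. Immediate early genes (20 of 20), which respond to stress during cell isolation among other things, summed to 670741 to 2991984 in knockout back, 319000 to 683223 in knockout tail and 371330 to 550008 in control tail. Basal keratinocyte markers (10 of 10) summed to 128639, 50228 and 198200 in knockout back, 42135, 18633 and 337512 in knockout tail and 71021, 105658 and 46350 in control tail. The groups overlapped, and the third libraries of both knockout groups were the highest of all 9. Differentiated keratinocyte markers (11 of 12) also overlapped, at 51157, 221648 and 78406, at 20620, 22889 and 277014, and at 43714, 120093 and 28334 in these groups. Fibroblast markers (5 of 7) summed to 3958 to 10850 in knockout back, 2534 to 4395 in knockout tail and 1417 to 2781 in control tail, and Schwann and Merkel cell markers (3 of 7) to 25077 to 47313, 7478 to 13558 and 7328 to 13446. Between knockout back and control tail, 3 of the 5 fibroblast markers were higher and 2 lower. Of the 3 Schwann and Merkel cell markers, 2 were higher and 1 lower, and 0 of either list passed. The part of these cells in the results below was not tested. In bulk libraries of this kind, fewer cells of a type and less RNA per cell cannot be told apart.

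Beta-catenin RNA was by far the most abundant of the 9. Per kilobase of exon, Ctnnb1 averaged 11400 normalised counts in knockout back, 8470 in knockout tail and 5050 in control tail, a level above that of 98.1%, 97.5% and 94.8% of 15396 genes with a known exon length. In control tail the order below it was Fzd6 (164 per kilobase), Fzd7 (107), Axin2 (89.0), Tcf7l2 (88.4), Lrp6 (55.2), Apc (45.0), Fzd4 (6.39) and Lrp5 (2.86). Between neighbours in that order the control libraries overlapped everywhere except below Ctnnb1, with 4500 to 6060 against 113 to 253 for Fzd6, and between Apc, with 26.4 to 68.1, and Fzd4, with 0 to 17.6. Ctnnb1, Fzd6 and Fzd7 held ranks 1, 2 and 3 in knockout back and knockout tail as well.

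**Figure D1:**
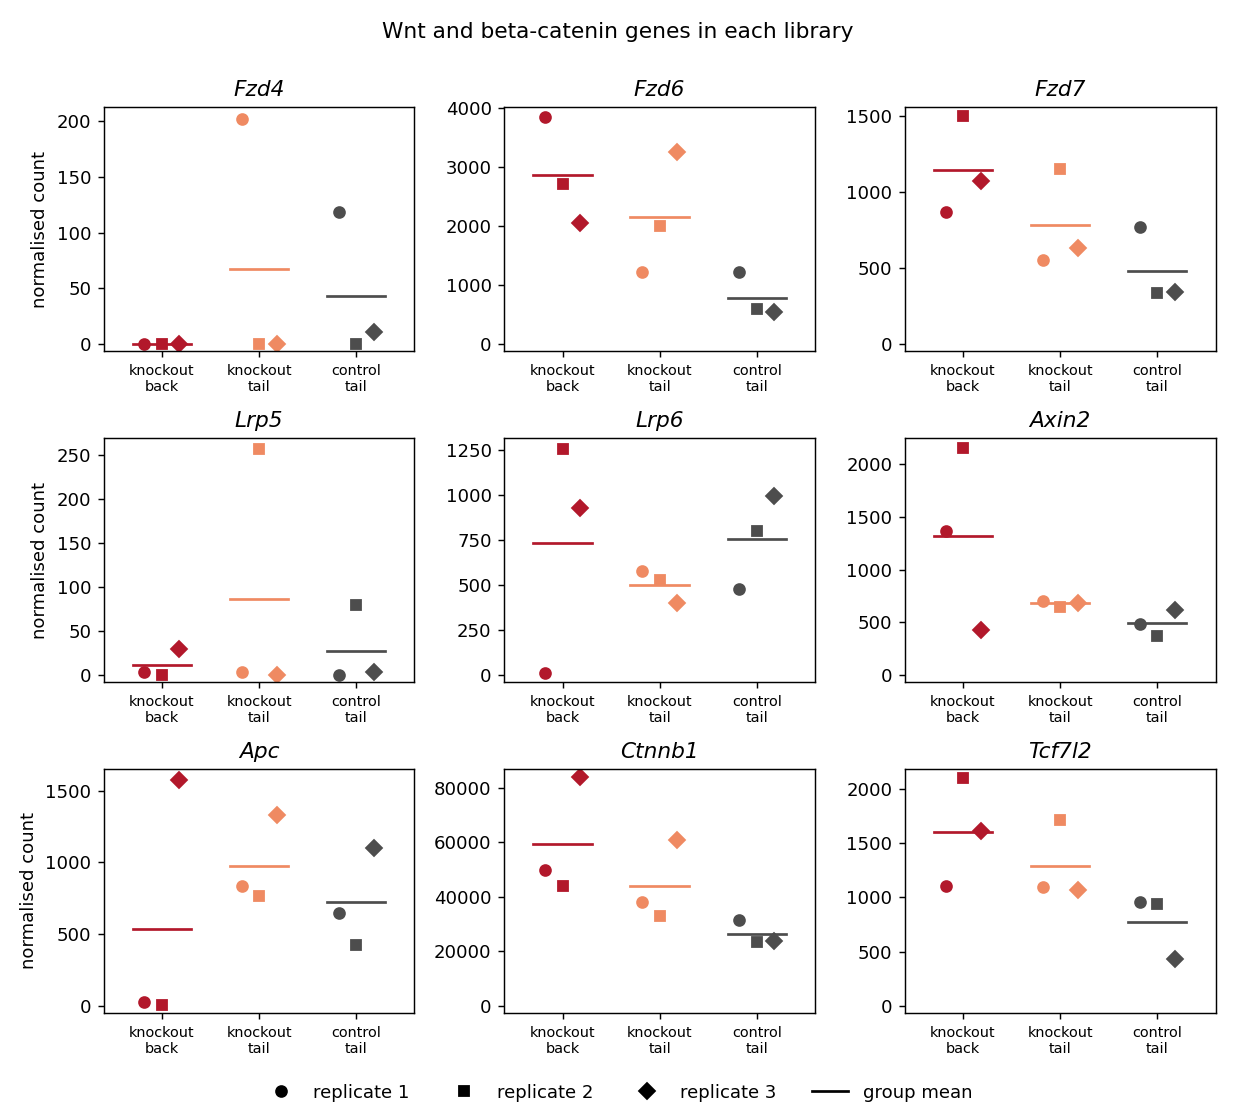
Normalised counts (linear axes starting at 0, a separate scale for each gene) of the 9 Wnt and beta-catenin genes in knockout back, knockout tail and control tail. Each point is 1 library, its shape gives the replicate number and the bar is the mean of 3 libraries. Every knockout library lies above every control library for Ctnnb1, Fzd6 and Tcf7l2, and the first and second knockout back libraries lie near 0 for Apc.

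Frizzled receptors come first in the pathway. Fzd6 (chromosome 15, 39006034 to 39038188, plus strand, GRCm38, protein coding) is a receptor best known in skin for hair and planar polarity. It had 3844, 2712 and 2046 normalised counts in knockout back, 1222, 2003 and 3248 in knockout tail and 1220, 606 and 546 in control tail. All 6 knockout libraries lay above the 3 control libraries, the first knockout tail library by 2 counts only. The mean was 3.63 times as high in knockout back and 2.73 times as high in knockout tail as in control tail. These means keep the shift between library sets, which was -0.67 for Fzd6 (larger minus smaller set, log2 scale).

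Neither difference of Fzd6 passed the test across all genes. The fitted difference (limma with group and library set as terms, Benjamini-Hochberg adjusted over 16299 genes, threshold 0.05) was 1.39 ± 0.46 (SE) on the log2 scale for knockout back against control tail, with adjusted p = 0.12, and 1.0 ± 0.46 for knockout tail against control tail, with adjusted p = 0.91. In the 7 libraries of the larger set, fitted alone, the knockout back difference was 1.63 with adjusted p = 0.045, but there knockout back consists of the first and second libraries, which stand apart. Without these 2 libraries the difference of Fzd6 from control tail was 0.20 with adjusted p = 0.94. Between the third libraries the difference of Fzd6 (knockout back minus knockout tail) was -0.56, and between the first and second it was 0.86. Reads of Fzd6 share at most 152 bases of exon with Gm26704 on the opposite strand. Gm26704 had 0 to 321 normalised counts, and whether the counting used strand is not given in the sources used here.

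Fzd7 (chromosome 1, 59482424 to 59486955, plus strand) encodes a canonical Wnt receptor. Its normalised counts were 870, 1497 and 1073 in knockout back, 553, 1153 and 635 in knockout tail and 771, 335 and 345 in control tail. Every knockout back library lay above every control library, while knockout tail overlapped both other groups. The differences were 0.88 ± 0.44 for knockout back against control tail, with adjusted p = 0.26, and 0.48 ± 0.44 for knockout tail against control tail, with adjusted p = 1.0.

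Fzd4 (chromosome 7, 89404355 to 89413134, plus strand), a receptor for Wnt ligands and for Norrin, was close to absent. It had 0 counts in each knockout back library, where a count of 0 allows up to 3.51 normalised counts (3 reads) in the shallowest of them. Knockout tail libraries had 202, 0 and 0 and control libraries 118, 0 and 11. Single libraries thus carried nearly all the signal, and no comparison of Fzd4 passed, with adjusted p of 0.58, 1.0 and 0.65 for knockout back against knockout tail, knockout tail against control tail and knockout back against control tail.

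Of the 2 co-receptors, Lrp6 was the one with a clear level. Lrp6 (chromosome 6, 134446476 to 134566965, minus strand) had 12, 1254 and 930 normalised counts in knockout back, 578, 528 and 400 in knockout tail and 476, 798 and 992 in control tail. The groups overlapped, and the first knockout back library lay far under the other 8. Lrp6 differed by -0.49 ± 0.69 for knockout back against control tail (adjusted p = 0.70), by -0.04 ± 0.65 for knockout back against knockout tail (adjusted p = 0.98) and by -0.45 ± 0.69 for knockout tail against control tail (adjusted p = 1.0). Without the first knockout back library its signs against both tail groups turned, to 0.53 against control tail and 0.77 against knockout tail. Lrp5 (chromosome 19, 3584828 to 3686564, minus strand) had 4, 0 and 30 in knockout back, 4, 256 and 0 in knockout tail and 0, 80 and 3 in control tail. As for Fzd4, 1 library of each tail group held most of the counts. No comparison of Lrp5 passed, with -0.03 ± 0.41 for knockout back against control tail (adjusted p = 0.97), -0.30 ± 0.39 for knockout back against knockout tail (adjusted p = 0.73) and 0.27 ± 0.41 for knockout tail against control tail (adjusted p = 1.0).

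Axin2 (chromosome 11, 108920349 to 108950783, plus strand) is at once a scaffold of the destruction complex and the target most often read as a measure of canonical signalling. It had 1363, 2156 and 432 normalised counts in knockout back, 707, 650 and 680 in knockout tail and 489, 368 and 614 in control tail. Knockout tail libraries were tightly grouped and all lay above the control libraries, with means of 679 ± 29 and 490 ± 123 (SD, n = 3 each). In knockout back the first and second libraries were the highest of all 9, and the third lay within the control range.

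The difference of Axin2 was 1.03 ± 0.45 for knockout back against control tail, 0.51 ± 0.42 for knockout back against knockout tail and 0.52 ± 0.45 for knockout tail against control tail. Adjusted p-values were 0.20, 0.56 and 1.0, so none passed. The knockout back values divide along the libraries that stand apart. Between the third libraries alone, the difference of Axin2 (knockout back minus knockout tail) was -0.39, and between the first and second libraries it was 0.97. Without the first and second knockout back libraries, the difference from control tail was -0.09.

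Apc (chromosome 18, 34220924 to 34322552, plus strand), the large scaffold whose loss stabilises beta-catenin in tumours, showed the same division with the opposite sign. It had 28, 5 and 1573 normalised counts in knockout back, 836, 767 and 1331 in knockout tail and 651, 426 and 1097 in control tail. The first and second knockout back libraries were far below the other 7, and the third was the highest of all 9. The difference of Apc between knockout back and knockout tail was -1.98 in the first and second libraries and 0.18 in the third.

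Across all 9 libraries Apc did not pass, at -1.47 ± 0.56 for knockout back against control tail (adjusted p = 0.16), -1.26 ± 0.53 for knockout back against knockout tail (adjusted p = 0.26) and -0.22 ± 0.56 for knockout tail against control tail (adjusted p = 1.0). It passed in the 7 libraries of the larger set, where knockout back consists of the 2 libraries that stand apart: the difference was -1.83 against control tail, with adjusted p = 0.030, and -1.98 against knockout tail, with adjusted p = 0.039. Without those 2 libraries it was 0.33 and 0.18. Apc is the longest of the 9 transcripts, with 16.1 kilobases of exon. Among genes with more than 10 kilobases of exon in the range of means given above, 25.9% and 42.8% were under 10% of the mean in these libraries, against 33.0% and 47.3% of shorter genes.

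Ctnnb1 (chromosome 9, 120929216 to 120960507, plus strand), which encodes beta-catenin itself, was the 1 gene of the 9 that passed the test, in 1 comparison. It had 49773, 44003 and 83897 normalised counts in knockout back, 38233, 32882 and 60851 in knockout tail and 31483, 23361 and 23851 in control tail. All 6 knockout libraries lay above the 3 control libraries. The third library was the highest of both knockout groups, and knockout back and knockout tail overlapped. Means were 59224 ± 21561, 43989 ± 14846 and 26232 ± 4554 in these groups (SD, n = 3 each).

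Between knockout back and control tail the means of Ctnnb1 were 2.26 times apart, in counts that keep the shift between library sets. That shift was -1.08 for Ctnnb1 (larger minus smaller set, log2 scale), and the control libraries are all in the larger set. With the set as a term, Ctnnb1 rose in knockout back against control tail by 0.85 ± 0.17 (95% interval 0.46 to 1.23, adjusted p = 0.044). This comparison changes body site and genotype together. Through the knockout tail group it divides into a genotype difference at the tail and a site difference within the knockout, which were 0.43 ± 0.17 for knockout tail against control tail (95% interval 0.05 to 0.81, adjusted p = 0.78) and 0.42 ± 0.16 for knockout back against knockout tail (95% interval 0.05 to 0.78, adjusted p = 0.22). Neither passed after adjustment. Within library sets the site difference was 0.46 between the third libraries and 0.40 between the first and second.

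The size of the Ctnnb1 difference was steady across settings, but its call was not. Over 21 alternatives the difference of knockout back from control tail stayed between 0.71 and 1.11, and adjusted p ran from 0.031 to 0.42, with 7 of the 21 under the threshold. The call was lost on leaving out the first, the second or the third control library (adjusted p of 0.077, 0.13 and 0.12), the first or second knockout tail library (0.073 and 0.071) or the first or second knockout back library (0.090 and 0.067). It held without the third knockout tail library (0.031) or the third knockout back library (0.032). Both of these fits leave the smaller set with a single library, which the set term then takes up. They thus nearly repeat the fit of the 7 libraries of the larger set, which also passed, with a difference of 0.84. In that fit knockout back consists of the first and second libraries, which stand apart. Without the first and second knockout back libraries the difference of Ctnnb1 was 0.90. Ctnnb1 exons share up to 475 bases with Ulk4 on the opposite strand, a gene with 0 to 978 normalised counts.

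**Figure D2:**
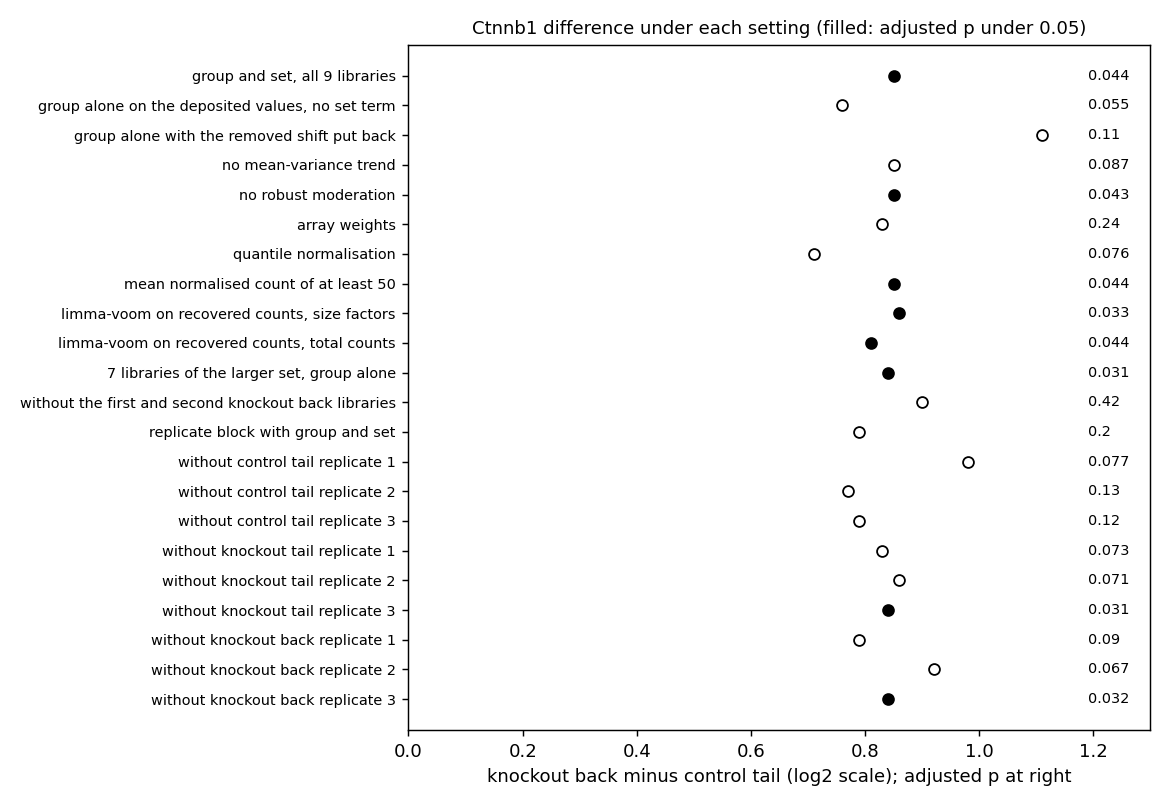
Difference of Ctnnb1 between knockout back and control tail on the log2 scale (horizontal axis, from 0) under each setting, the top one being group and library set over all 9 libraries. Each point is 1 fit, filled where the adjusted p printed at the right is under 0.05. All differences lie between 0.71 and 1.11, and the top point and 7 of the 21 others are filled.

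Tcf7l2 (chromosome 19, 55741820 to 55933654, plus strand) encodes a TCF factor that carries beta-catenin to its target genes. It had 1103, 2098 and 1611 normalised counts in knockout back, 1094, 1714 and 1069 in knockout tail and 956, 938 and 433 in control tail. All knockout libraries were above all control libraries, the lowest of them by little, and knockout back overlapped knockout tail. The differences of 0.80 ± 0.43 for knockout back against control tail and 0.57 ± 0.43 for knockout tail against control tail did not pass (adjusted p of 0.30 and 1.0).

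Windows of 250 bases before annotated starts (RefSeq, GRCm38.p6) were available for 5 of the 9 genes, 7 windows in all. Each was searched on both strands for 4 TCF/LEF words, CTTTGAA, then CTTTGAT, also CTTTGTA, and finally CTTTGTT, which differ only in their last letters, so that no position matches more than 1 of them. Of 32851 windows in the table, 14.8% held at least 1 such word, and of the 7 windows 2 did, 1 each of Fzd7 and Tcf7l2. They are shown because they are the windows of the 9 genes that held a word, together with a window of Mitf, the melanocyte regulator that is a known TCF/LEF target. Capitals mark the word, and each line runs 5′ to 3′ on the plus strand. They lie at chr1:59481897-59482146 for Fzd7, chr19:55895071-55895320 for Tcf7l2 and chr6:97991533-97991782 for Mitf.
Fzd7: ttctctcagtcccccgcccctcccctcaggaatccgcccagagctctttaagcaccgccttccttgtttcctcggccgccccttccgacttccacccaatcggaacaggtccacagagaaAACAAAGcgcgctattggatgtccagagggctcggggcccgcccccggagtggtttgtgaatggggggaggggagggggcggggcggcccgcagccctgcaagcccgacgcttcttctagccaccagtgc
Tcf7l2: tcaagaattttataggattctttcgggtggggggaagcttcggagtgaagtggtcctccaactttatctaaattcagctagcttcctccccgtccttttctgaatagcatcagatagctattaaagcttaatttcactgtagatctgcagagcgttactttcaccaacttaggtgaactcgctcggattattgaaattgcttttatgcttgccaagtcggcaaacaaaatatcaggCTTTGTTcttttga
Mitf: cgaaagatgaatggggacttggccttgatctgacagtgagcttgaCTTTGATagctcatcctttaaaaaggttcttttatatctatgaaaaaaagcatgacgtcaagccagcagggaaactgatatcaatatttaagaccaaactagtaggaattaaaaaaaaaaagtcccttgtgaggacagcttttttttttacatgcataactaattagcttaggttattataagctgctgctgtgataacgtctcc

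The Fzd7 word lies on the strand opposite to the gene and begins 130 bases before the RefSeq start that its window precedes. The gene interval given above, from GENCODE, begins further downstream, at 59482424. The Tcf7l2 word begins 14 bases before an internal start of that gene, and the window at its first start held none. The Mitf word begins 205 bases before the annotated start that its window precedes, and that window is 1 of 3 of the gene. Neither window of Ctnnb1, the member that passed, held a word, and the windows of Axin2 and Fzd4 held none. Both Ctnnb1 windows, chr9:120933150-120933399 and chr9:120933328-120933577, lie inside the gene interval given above, which begins at 120929216. The bases before that start were therefore not searched. Such a match is a run of letters and not a measured binding site. Mitf had 17331, 17629 and 14654 normalised counts in knockout back, 12567, 8282 and 9879 in knockout tail and 10400, 8557 and 7800 in control tail. Knockout back lay above both tail groups, which 7.41% of all genes showed against control tail and 4.55% against knockout tail. The difference of 0.91 ± 0.22 from control tail had adjusted p = 0.062.

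**Figure D3:**
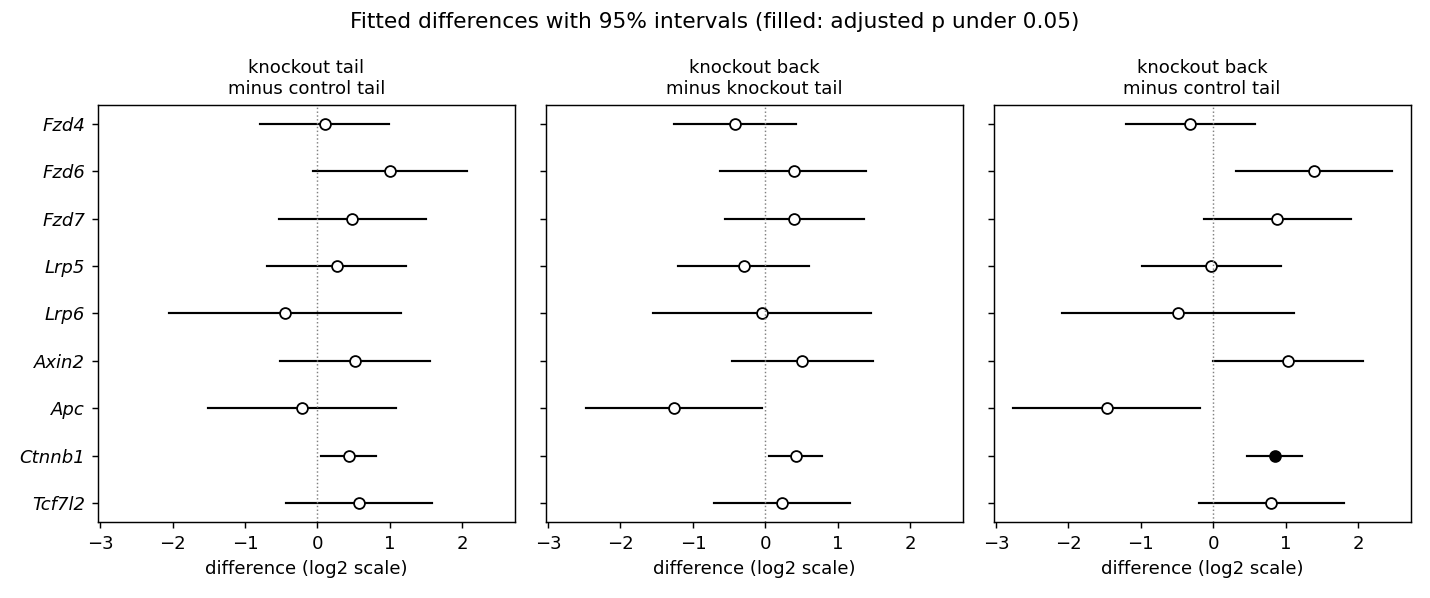
Fitted differences of the 9 genes on the log2 scale (horizontal axes, shared), with 95% intervals, for knockout tail minus control tail, knockout back minus knockout tail and knockout back minus control tail. The 1 filled point is Ctnnb1 in knockout back minus control tail, with an interval of 0.46 to 1.23, and all open points have an adjusted p over 0.05.

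Of the 9 genes, 0 passed for knockout tail against control tail, where 10 genes or 0.0614% of all genes did. In limma 1 of the 9 had an unadjusted p under 0.05 there, against 929 of all 16299 genes. For knockout back against knockout tail 0 of the 9 passed, against 0.436% of all genes. Under an unadjusted 0.05 were 2 of the 9, against 2974 of the 16299. Limma-voom, run on recovered counts, called 0 of the 9 in both comparisons as well. Against control tail, 1 of the 9 passed in knockout back, where 3.34% of all genes did. Under an unadjusted 0.05 in limma were 3 of the 9, against 4003 of the 16299. Every knockout tail library lay above every control library in 4 of the 9, Ctnnb1, Axin2, Fzd6 and Tcf7l2, where 9.70% of all genes did. The same held for every knockout back library in 4 of the 9, Ctnnb1, Fzd6, Fzd7 and Tcf7l2, against 7.41% of all genes. Both comparisons share the control libraries, and the counts of the third knockout libraries keep the shift between library sets. No member had every knockout back library above every knockout tail library (4.55% of all genes), and no member was lower throughout in any comparison (9.31% of all genes for knockout tail against control tail, 10.4% for knockout back against knockout tail and 15.6% for knockout back against control tail).

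Among the 9 the median difference between knockout tail and control tail was 0.43, that between knockout back and knockout tail 0.23 and that between knockout back and control tail 0.80. Over all genes it was -0.07, -0.18 and -0.26 in these comparisons. Quantile normalisation moved these medians of all genes to 0.01, 0.03 and 0.03, and the Ctnnb1 difference to 0.71 for knockout back against control tail. The members were chosen with earlier results known, so their medians describe them and test nothing.

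The rest of the pathway was read from 8 lists that held 117 genes of the table, the members included. None passed for knockout tail against control tail. Between knockout back and knockout tail 1 passed, Ccnd1, lower, where 0.294% of all genes passed as lower. Between knockout back and control tail 1 passed as higher, Ctnnb1, against 1.05% of all genes, and 3 as lower, Ccnd1, Tle1 and Sostdc1, against 2.29%. Medians over the 117 were -0.10, -0.07 and -0.10 for knockout tail against control tail, knockout back against knockout tail and knockout back against control tail, where all genes gave -0.07, -0.18 and -0.26.

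Ccnd1, which encodes cyclin D1 and is a common although not exclusive Wnt target, fell in knockout back against both tail groups. It had 3533, 1938 and 5573 normalised counts in knockout back, 9457, 8938 and 19625 in knockout tail and 19851, 15754 and 19679 in control tail. Every knockout back library lay below every tail library. Of all genes, 15.6% showed this against control tail and 10.4% against knockout tail. Ccnd1 fell by 2.61 ± 0.24 on the log2 scale against control tail, with adjusted p = 0.0070, and by 1.67 ± 0.23 against knockout tail, with adjusted p = 0.038. Against control tail it passed in 19 of 21 alternatives, and 1 that it failed was the fit without the first and second knockout back libraries (adjusted p = 0.11). Against knockout tail it passed in 12 of 21, and leaving out the first, the second or the third control library or the first or second knockout tail library gave adjusted p of 0.11, 0.097, 0.085, 0.18 and 0.18.

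Tle1, a Groucho-type co-repressor that binds TCF factors when beta-catenin is absent, was nearly absent from knockout back. It had 4, 0 and 23 normalised counts there, 2110, 878 and 551 in knockout tail and 3064, 3866 and 4191 in control tail. The 3 groups did not overlap, and the third knockout back library was as low as the first and second. Of all genes, 15.6% had every knockout back library below every control library, and 10.4% below every knockout tail library. Every knockout tail library lay below every control library in 9.31%. Tle1 fell by 3.75 ± 0.46 against control tail, with adjusted p = 0.014. Against knockout tail it differed by -2.37 ± 0.44, with adjusted p = 0.071. The call against control tail held in 15 of 21 alternatives. It was lost without the first, the second or the third control library (adjusted p of 0.063, 0.077 and 0.069) with array weights (0.071) and without the first and second knockout back libraries together (a difference of -2.71, adjusted p = 0.28). With the low knockout back counts the size depends on the scale: limma-voom on the recovered counts gave -9.60.

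Sostdc1, a secreted antagonist of Wnt and BMP signals, had 0, 0 and 1424 normalised counts in knockout back, 335, 237 and 2435 in knockout tail and 1846, 2123 and 950 in control tail. The third libraries of both knockout groups reached the control range and the others did not. Sostdc1 fell by 2.88 ± 0.44 against control tail in the fit that compares within library sets, with adjusted p = 0.025. It passed in 8 of 21 alternatives. Adjusted p was 0.10, 0.11 and 0.070 without the first, the second and the third control library, 0.058 without the first or second knockout tail library and 0.058 without the first knockout back library, and putting the removed shift back gave -2.05 with adjusted p = 0.26.

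**Figure D4:**
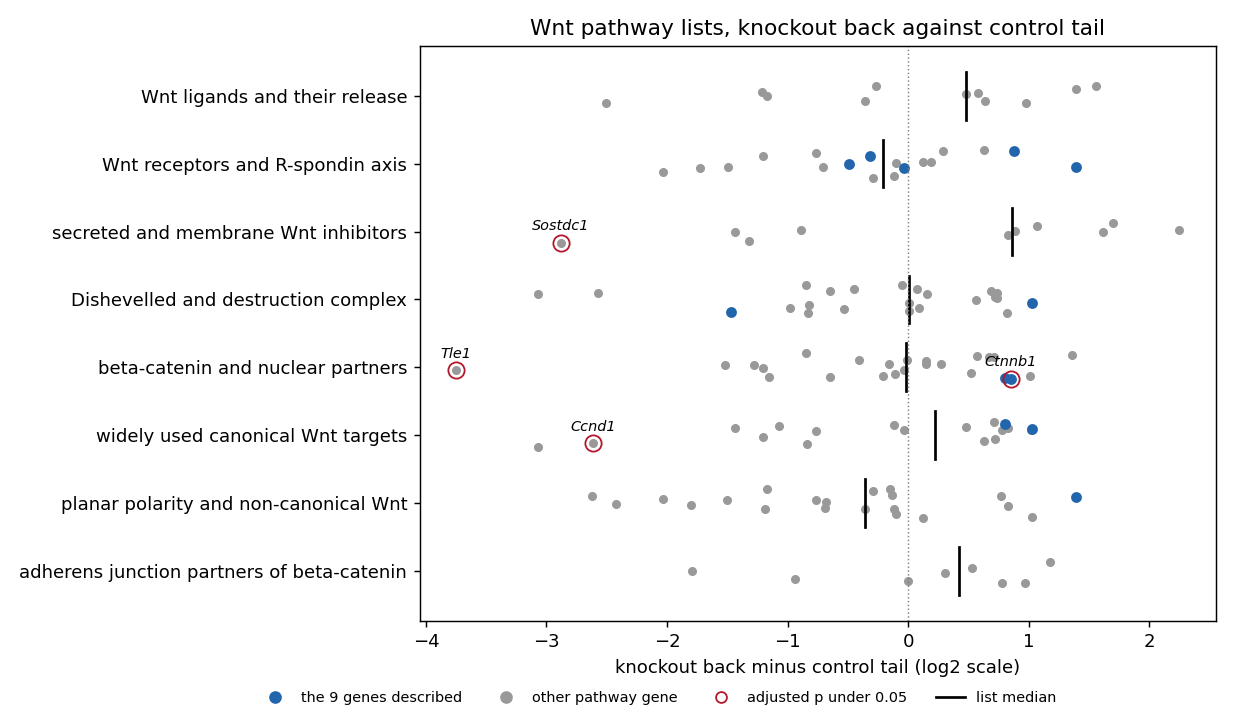
Difference between knockout back and control tail on the log2 scale (horizontal axis) for the genes of 8 Wnt lists (rows), 1 point per gene, with a bar at the median of each list; a gene in several lists appears in each. Circled genes have an adjusted p under 0.05. Ctnnb1 is circled to the right of 0, and Tle1, Sostdc1 and Ccnd1 to the left.

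By role, the lists gave the following for knockout back against control tail. The median of all genes there was -0.26, and 3.34% of all genes passed, 1.05% as higher and 2.29% as lower. Of the ligands and the genes for their release, 0 of 11 passed, with a median difference of 0.48. Wls, which carries Wnt proteins to the cell surface, was the most abundant, with 9226, 5493 and 16681 normalised counts in knockout back, 8449, 7963 and 16787 in knockout tail and 5365, 4365 and 4505 in control tail. All knockout libraries were above the control libraries, which 9.70% of all genes showed for knockout tail and 7.41% for knockout back. These counts keep the shift between library sets, which was -1.36 for Wls (larger minus smaller set, log2 scale). The difference of 0.58 ± 0.23 for knockout back against control tail did not pass (adjusted p = 0.18). Wnt3 was carried by 1 library, the second of knockout back, with 5908 normalised counts against at most 926 in any other. Of the receptors and the R-spondin axis, 0 of 18 passed, with a median of -0.20.

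Of the secreted and membrane inhibitors, 1 of 10 passed, Sostdc1, lower, with a list median of 0.86. Dkk3, a member of the Dickkopf family that does not act as a classical Wnt antagonist, was the highest, with 98251, 54234 and 77367 normalised counts in knockout back, 52826, 55643 and 80108 in knockout tail and 37734, 34502 and 26817 in control tail. Every knockout library lay above every control library, against 9.70% of all genes for knockout tail and 7.41% for knockout back. These counts keep the shift between library sets, which was -0.72 for Dkk3 (larger minus smaller set, log2 scale). Dkk3 differed by 1.07 ± 0.26 for knockout back against control tail, with adjusted p = 0.062. Kremen2, a co-receptor for Dickkopf proteins, had 961, 1533 and 219 in knockout back, 0, 0 and 98 in knockout tail and 0, 125 and 120 in control tail, and its difference from knockout tail of 1.97 ± 0.52 had adjusted p = 0.12.

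Of the Dishevelled and destruction complex genes 0 of 23 passed, with a median of 0.01, and of beta-catenin and its nuclear partners 2 of 24, Ctnnb1 higher and Tle1 lower, with a median of -0.02. Crebbp, a histone acetyltransferase that beta-catenin recruits, had 4827, 4728 and 3366 normalised counts in knockout back, 2216, 1810 and 1550 in knockout tail and 1830, 1191 and 1677 in control tail. Knockout back lay above both tail groups, which 7.41% of all genes showed against control tail and 4.55% against knockout tail. The difference of 1.36 ± 0.31 from control tail had adjusted p = 0.055.

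Of the widely used canonical targets 1 of 18 passed, Ccnd1, lower, with a median of 0.22. The list pointed both ways, with 9 of the 18 above 0 and 9 below, where 33.9% of all genes were above 0. Nkd1, a feedback inhibitor, had 7677, 8853 and 5212 normalised counts in knockout back, 4849, 4108 and 1578 in knockout tail and 5524, 6059 and 4266 in control tail, and differed by 1.04 ± 0.26 from knockout tail (adjusted p = 0.11). Cd44, an adhesion receptor, had 33646, 22003 and 49990 in knockout back, 23696, 23893 and 39044 in knockout tail and 15663, 10067 and 15222 in control tail, and differed by 1.02 ± 0.24 between knockout back and control tail (adjusted p = 0.058). Ccnd2, the cyclin D2 gene, pointed the other way at -1.20 ± 0.38 (adjusted p = 0.11). Axin2, at 1.03, stood among targets on both sides of 0.

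Of the planar polarity and non-canonical genes 0 of 21 passed, with a median of -0.36. Vangl1, a core planar polarity protein, had 0, 5 and 2849 normalised counts in knockout back, 2912, 2415 and 3238 in knockout tail and 2395, 1358 and 2292 in control tail. It was near 0 in the libraries that had little Apc and at the level of the tail libraries in the third. Daam2, a formin that binds Dishevelled, had the smallest p of the 117 for knockout tail against control tail, with 0, 0 and 52 in knockout tail against 472, 356 and 342 in control tail and a difference of -1.98 ± 0.42 (adjusted p = 0.26).

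Beta-catenin also links cadherins to alpha-catenin at adherens junctions, and 0 of 8 genes of that list passed in any comparison. Its median was 0.37 for knockout tail against control tail and 0.42 for knockout back against control tail. Cdh3, or P-cadherin, had 24502, 30895 and 38987 normalised counts in knockout back, 31132, 27162 and 40128 in knockout tail and 16891, 7610 and 13199 in control tail. Its knockout tail difference of 1.24 ± 0.29 had adjusted p = 0.32. Cdh1, or E-cadherin, had 10000, 14781 and 11861 in knockout back, 10895, 10844 and 9579 in knockout tail and 7848, 5054 and 5680 in control tail, and Ctnna1, for alpha-catenin, had 20760, 12928 and 24500, 15750, 16160 and 34419, and 10856, 8379 and 12771 in these groups. These 3 genes had the highest mean normalised counts of the list, not scaled to exon length. In each, every knockout library was above every control library, which 9.70% of all genes showed for knockout tail and 7.41% for knockout back. Between knockout back and control tail 5 of the 8 were above 0, where 33.9% of all genes were. These were the 3 genes above, Ctnnd1 at 0.78 and Jup at 0.31. Others of the list pointed the other way or not at all, with -1.79 for Vcl, -0.94 for Cdh2 and 0.00 for Afdn.

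The genes whose deposited values ran closest to those of Axin2 and Ctnnb1 over the 9 libraries were found by the root mean square difference after centring each gene on its own mean, among 12887 genes with a mean of at least 100 normalised counts. Closest to Axin2 were Cdk12 at 0.118, Tm9sf1 and X1700037H04Rik at 0.130, Brap at 0.133 and Tmem183a at 0.140 on the log2 scale, where Axin2 itself departed from its mean by 0.502. Closest to Ctnnb1 were Man1b1 at 0.126, Mmp14 at 0.149, Apbb2 and Zfr at 0.154 and Ccdc91 at 0.157, against 0.351 for Ctnnb1 itself. None of these 10 belongs to the Wnt lists. The same libraries, and the library sets, underlie every such likeness.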

How the data were processed

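RNA of 9 libraries was made into cDNA with a SMART-Seq v4 kit and sequenced paired-end, per the labels' protocols. The deposited table gives log2 values for 16299 genes. DESeq2 and GRCm38 are named in the submitters' processing notes; which aligner, counter and strand setting were used is not given in the sources used here. Deposited values follow a variance-stabilising curve, so log2 differences understate changes of genes with few counts. The mean of 2 libraries, the third of each knockout group, equalled that of the other 7 to within 7.14e-09 in each gene, so a shift between these sets had been taken out. Undoing curve and shift gave whole counts for 16295 genes (tolerance 0.004). The 4 unresolved genes, Dct, Pmel, Tyrp1 and Gm22133, have no normalised count here.

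The test was limma (version 3.58.1, R 4.3.3; trend, robust) on the deposited log2 values with group and library set as terms, Benjamini-Hochberg adjusted over all genes. Its estimates are the same with the shift put back. No pseudocount or filter was applied. It was tested on simulated data. Coordinates and exon lengths are from GENCODE vM21 on GRCm38, which matched 15400 symbols. Named were the 9 genes, every Wnt list gene that passed, the 3 highest per list, the 5 smallest p per comparison and the 5 closest to Axin2 and to Ctnnb1, of which some are given only as counts. Members and lists were chosen with earlier results of these data known. Alternatives changed terms, weights, scaling, filter, tool and libraries. Totals ran from 45.7 to 67.8 M per library, and errors given are those between libraries.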

Additional observations from a re-analysis of the deposited data

How the results depend on the processing

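Of 897 differences of single genes under alternative settings, 791 kept direction and side of the threshold, 44 lost the call, 25 gained one and 37 changed sign. The cause was not tested, except where fewer libraries or genes by construction left less to fit. The 4 genes with no recovered count are absent from the limma-voom fits, and Fzd4 and Lrp5 from the fit limited to a mean of at least 50 normalised counts. Depth did not limit Ctnnb1, but Fzd4 and Lrp5 lie near 0 in most libraries.

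Genes called for knockout tail against control tail numbered 10. They numbered 0 with group alone, without the mean-variance trend, in both limma-voom fits, in the 7 libraries of the larger set and without the first and second knockout back libraries, 4 with the filter and 130 with array weights. Leaving out 1 library gave 0 to 8.

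Between knockout back and knockout tail 71 were called. The number was 244 with group alone, 31 with the shift put back, 6 with array weights, 202 and 210 with limma-voom (size factors and total counts), 1637 in the 7 libraries and 1 without the first and second knockout back libraries. Leaving out 1 library gave 2 to 1642. Of the 9 members, 1 was called in the 7 libraries, and 0 to 1 on leaving out 1 library.

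Between knockout back and control tail 545 were called. The number was 163 with group alone, 217 with the shift put back, 37 with array weights, 2371 in the 7 libraries and 8 without the first and second knockout back libraries. Leaving out 1 library gave 26 to 2385. Members called, 1 in the reported fit, were 0 with group alone, the shift put back, no trend, array weights, quantile normalisation or without the first and second knockout back libraries, and 3 in the 7 libraries (Ctnnb1, Fzd6 and Apc). Leaving out 1 library gave 0 to 3.

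The share of calls that were higher was 31.4% for knockout back against control tail and 45.4% after quantile normalisation, 32.4% for knockout back against knockout tail (23 of 71, against 46 of 92 after it), and 70.0% and 80.0% for knockout tail against control tail.

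The labels name no shared animal. Deviations of same-numbered libraries correlated at -0.172 to 0.0761, apart from -0.703 between the third knockout back and knockout tail libraries. With the shift taken out, the submitted values of these 2 libraries mirror each other around the gene mean. The -0.703 therefore cannot show whether they are paired. With the replicate number as a block, 0, 3 and 5 genes were called for knockout tail against control tail, knockout back against knockout tail and knockout back against control tail, with 0 members in each, and the Ctnnb1 difference from control tail was 0.79 with adjusted p = 0.20. For Ccnd1, Tle1 and Sostdc1 in knockout back against control tail it gave adjusted p of 0.073, 0.17 and 0.17, and for Ccnd1 against knockout tail 0.17.

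For knockout tail against control tail, Fzd4 was -0.37 and -0.34 with limma-voom and -0.42 to 0.47 on leaving out 1 library. Lrp5 ran over -0.31 to 0.56 on leaving out 1. Apc was 0.32 with the shift put back, 0.06 with array weights, 0.14 in the 7 libraries and without the first and second knockout back libraries, 0.01 with the replicate block, and -0.50 to 0.14 on leaving out 1. Between knockout back and knockout tail, leaving out the first and second knockout back libraries gave -0.39 for Axin2, -0.56 for Fzd6, 0.50 for Lrp5, 0.75 for Lrp6 and 0.18 for Apc. Lrp6 was 0.35 after quantile normalisation. Leaving out 1 library gave -0.70 to 0.16 for Lrp5 and -0.63 to 0.77 for Lrp6. Between knockout back and control tail, leaving out the same libraries gave -0.09 for Axin2, 0.20 for Fzd4, 0.97 for Lrp5, 0.49 for Lrp6 and 0.33 for Apc. Lrp5 was 0.22 with array weights, 0.30 after quantile normalisation and 0.15 and 0.09 with limma-voom. Leaving out 1 library gave -0.23 to 0.21 for Lrp5 and -1.23 to 0.53 for Lrp6.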
